A study of Mus musculus with 4 samples.

Results

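The BCL2 family decides whether a cell under stress keeps its mitochondria intact, and 10 of its genes were followed here through 4 mouse tumours of a glioma model. The members were taken by their mouse symbols: the pro-survival genes Bcl2, Bcl2l1 and Mcl1, the pro-death effectors Bax and Bak1, and the pro-death BH3-only genes Bcl2l11, Bid, Bad, Bbc3 and Pmaip1. These are 10 of the 46946 genes in the count table, and each symbol matched 1 gene. All 4 tumours belong to a single group, PDGFB K27M, genotype K27M, untreated. Per the sample labels they grew from PDGF K27M neural stem cells, so each carries PDGF and the mutation that replaces lysine 27 of histone H3. The design text of the series instead names injected DIPG cells with mutant H3.3, DIPG being a childhood glioma of the pons, and the table does not settle which holds. The age and strain of the mice, the promoters that drive the introduced genes and whether the tumours share a stem cell line or clone are facts the labels and design text leave out. The libraries are called by their column names T14, T10, T8 and TUN and cannot be matched to the numbered samples. Each held 21664889 to 24369339 counts. No normal tissue, other genotype or cultured parent line is analysed here, so the data give levels, their order and their spread between tumours.

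In the intrinsic pathway of apoptosis, BAX and BAK1 open pores in the outer mitochondrial membrane, which releases cytochrome c and starts the caspases. BCL2, BCL-XL (the product of Bcl2l1) and MCL1 hold the effectors in check. The BH3-only proteins sense stress: they occupy the groove of the pro-survival proteins or activate the effectors directly, through a short helix called the BH3 domain. In the nervous system MCL1 is known for guarding neural progenitors and BCL-XL for guarding neurons. These proteins act through binding, cleavage and turnover, so an RNA level is not a protein activity.

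The BH3 domain is what all these genes share, and the bases that encode it show how far that likeness goes in the RNA that was counted. The coding sequence of each member, from the GENCODE M21 transcripts on GRCm38, was searched for codons of leucine, 3 residues of any kind, then glycine, alanine or serine, then aspartate. All 10 members held the pattern, 9 of them once. All 11 matches lay inside an exon of the deposited gene models. The 36 bases around the match are shown 5′ to 3′ on the coding strand for 9 members, with the leucine and aspartate codons in capitals.
Bcl2, chr1:106712575-106712610, minus strand: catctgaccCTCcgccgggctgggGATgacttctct
Bcl2l1, chr2:152829697-152829732, minus strand: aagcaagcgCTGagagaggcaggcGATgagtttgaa
Mcl1, chr3:95659427-95659462, plus strand: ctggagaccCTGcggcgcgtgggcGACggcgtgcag
Bax, chr7:45465997-45466032, minus strand: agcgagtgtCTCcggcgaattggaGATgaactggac
Bak1, chr17:27022531-27022566, minus strand: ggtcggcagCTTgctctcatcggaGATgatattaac
Bcl2l11, chr2:128147141-128147176, plus strand: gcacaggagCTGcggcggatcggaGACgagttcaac
Bid, chr6:120897289-120897324, minus strand: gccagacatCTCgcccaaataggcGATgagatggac
Bad, chr19:6950783-6950818, plus strand: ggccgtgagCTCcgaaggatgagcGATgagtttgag
Bbc3, chr7:16313764-16313799, plus strand: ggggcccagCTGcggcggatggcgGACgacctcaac

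Of the 36 pairs among these 9 stretches, Bcl2l11 and Bbc3 shared the most, 25 of 36 bases. The fewest were 13 of 36, in 3 pairs: Bcl2 with Bid, Mcl1 with Bak1 and Mcl1 with Bid. The median over pairs was 18.5 bases. Even the codons in capitals differ between members in their last base. No transcript of another gene matched a member over 100 bases or more at 95% identity, other than genes that overlap it in the genome (Ggnbp1 for Bak1, Gpr137 for Bad, Bcl2l13 for Bid and D630008O14Rik for Bcl2, the last at 0 counts in every library) and Gm45808, which shared 194 bases with Bax and is not analysed here.

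Among the pro-survival genes Mcl1 was the most abundant. Levels between genes are given as RPKM, counts scaled to library size and to merged exon length, and levels of 1 gene between tumours as CPM, counts scaled to library size alone. Mcl1 (ENSMUSG00000038612.16, chromosome 3, 95658788 to 95663176 in mm10), whose protein is short-lived and needs constant synthesis, stood at 173 CPM in T14 and 171 in T10, then 189 in T8 and 213 in TUN. The 4 values lay close together, with the highest only 1.24-fold above the lowest. Its mean of 54.6 ± 5.64 RPKM (SD, n = 4) was higher than that of 93.6% of the 14266 genes that passed the low-count filter.

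Bcl2l1 (ENSMUSG00000007659.18, chromosome 2, 152780668 to 152831728) stood at 109 CPM in T14 and 69.3 in T10, then 65.8 in T8 and 74.4 in TUN. T14 was set apart above the other 3, which lay close together. Its mean was 17.4 ± 4.32 RPKM. Bcl2 (ENSMUSG00000057329.7, chromosome 1, 106538178 to 106714274), the founding member of the family, had the lowest level of the 3. It stood at 41.7 CPM in T14 and 62 in T10, then 48.1 in T8 and 38 in TUN, with T10 the highest and TUN the lowest, and at 5.18 ± 1.16 RPKM on average. Bcl2 is known for high levels in lymphocytes. The 10 T, NK and B cell markers summed to 0.285 to 0.67 CPM per tumour, with Cd3e, Cd3g and Ms4a1 at 0 counts in every library. Gene counts do not separate the long forms of Bcl2l1 and Mcl1 from their short splice forms, which are known to promote death.

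The effectors, which form the membrane pores, included the most abundant member per length. Bax (ENSMUSG00000003873.10, chromosome 7, 45461695 to 45466898) stood at 88 CPM in T14 and 65.2 in T10, then 147 in T8 and 141 in TUN. T8 and TUN were nearly equal and both lay above T14 and T10. With a merged exon length of only 869 bases, the shortest of the 10, Bax reached 127 ± 46.1 RPKM and stood above 98.2% of the genes tested. Bak1 (ENSMUSG00000057789.13, chromosome 17, 27019810 to 27029009) followed the same division, at 37.3 CPM in T14 and 32.7 in T10, then 57.2 in T8 and 62.5 in TUN, and averaged 19.7 ± 6.07 RPKM. T8 and TUN were again the 2 highest tumours. Bax exceeded Bak1 per length by 2.66 ± 0.16 log2 units in 4 of 4 tumours, a ratio that varied little although both genes ranged about as widely as each other: the highest tumour was 2.26-fold above the lowest for Bax and 1.91-fold for Bak1. The exons of Bak1 share 357 of 2407 bases with Ggnbp1 on the other strand, and Ggnbp1 had 24 to 47 counts per library. How shared reads were counted is not given, so reads from that stretch may be missing from Bak1.

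Per length, the mean of each BH3-only gene stood below that of Bcl2l1. Bad (ENSMUSG00000024959.13, chromosome 19, 6941861 to 6951898), whose protein is kept inactive by growth factor kinases, had the smallest range of all members (1.19-fold), at 27.3 CPM in T14 and 23 in T10, then 24.8 in T8 and 24.2 in TUN. Its mean was 12.4 ± 0.9 RPKM. Its exons share 517 of 2007 bases with Gpr137 on the other strand, and since the TruSeq RNA kit does not mark strand, reads from that stretch cannot be assigned to either gene. Gpr137 had 712 to 1277 counts per library against 543 to 615 for Bad, so the level and spread of Bad are uncertain.

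Pmaip1 (ENSMUSG00000024521.7, chromosome 18, 66458604 to 66465550) encodes NOXA, which binds MCL1 and is a p53 target. It stood at 17.8 CPM in T14 and 19.3 in T10, then 46.8 in T8 and 34.1 in TUN. T8 and TUN lay apart above T14 and T10, as for the effectors, and the 2.62-fold range was the widest among the members. Its mean was 11.1 ± 5.16 RPKM.

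Bbc3 (ENSMUSG00000002083.12, chromosome 7, 16309616 to 16318205) encodes PUMA, the other well-known p53-induced BH3-only protein, which binds all pro-survival members. It stood at 14.4 CPM in T14 and 10.3 in T10, then 13 in T8 and 18.6 in TUN, on average 7.01 ± 1.73 RPKM. Unlike Pmaip1, it was not high in T8, and only TUN and T10 stood out, at the top and the bottom. The log2 ratio of Bbc3 to Pmaip1 was 0.09 in T14 and -0.51 in T10, then -1.43 in T8 and -0.47 in TUN (exact sign-flip permutation p = 0.25, adjusted 0.273).

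Bid and Bcl2l11, whose products can activate BAX and BAK1 directly, were the 2 lowest members per length. Bid (ENSMUSG00000004446.12, chromosome 6, 120891930 to 120916853), which links the death receptors to mitochondria, stood at 4.13 CPM in T14 and 8.92 in T10, then 10.2 in T8 and 10.6 in TUN. T14 was low and the other 3 were close. The 93 counts of T14 give a 95% exact Poisson interval of 3.33 to 5.06 CPM, which covers counting error only and lies below the interval of T10 (7.77 to 10.2 CPM). Of its 3550 exon bases, 628 overlap the neighbouring family gene Bcl2l13 on the other strand, and Bcl2l13 had 2473 to 3692 counts against 93 to 244 for Bid, so the level of Bid is uncertain. Bcl2l11 (ENSMUSG00000027381.16, chromosome 2, 128126038 to 128162547), which encodes BIM, stood at 11.1 CPM in T14 and 12.9 in T10, then 14.5 in T8 and 12.6 in TUN. Its values lay within 1.31-fold of each other, and its mean of 1.59 ± 0.173 RPKM exceeded that of 16.4% of the genes tested.

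**Figure D1:**
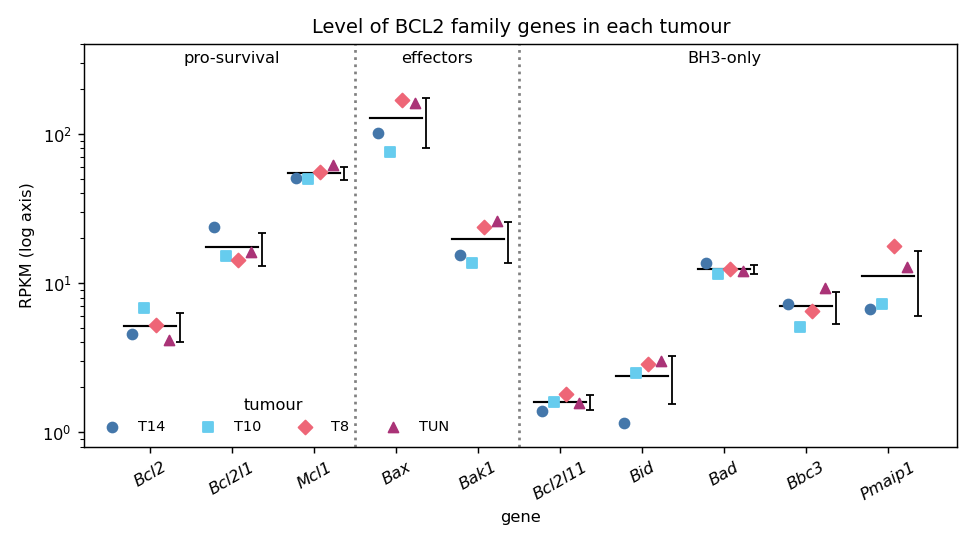
Level of each member in each tumour in RPKM on a log axis; symbols mark the tumours, horizontal lines the mean and error bars 1 SD (n = 4). Bax stands highest at 127 RPKM and Bcl2l11 lowest at 1.59 RPKM, and for Bax, Bak1 and Pmaip1 the symbols of T8 and TUN lie above those of T14 and T10.

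In order of mean RPKM the members ran Bax, Mcl1, Bak1, Bcl2l1, Bad, Pmaip1, Bbc3, Bcl2, Bid and Bcl2l11. This order and its gaps were taken at the merged exon length only, which for Bax is 869 bases against 1100 for its longest coding transcript. With the longest coding transcript as length, the mean log2 ratio of Bcl2l1 to Bak1 was 0.66. By mean CPM, Mcl1 (186) stood above Bax (110). Of the 9 steps between neighbours, 4 separated genes whose tumour values did not overlap: Bax from Mcl1, Mcl1 from Bak1, Bcl2l1 from Bad, and Bcl2 from Bid. The other neighbours overlapped. Bak1 was above Bcl2l1 in only 2 of 4 tumours, and Bad above Pmaip1 in 2 of 4. The remaining overlapping neighbours, Pmaip1 and Bbc3, Bbc3 and Bcl2, and Bid and Bcl2l11, kept their order in 3 of 4 tumours. A gene as central to the name of the family as Bcl2 thus stood eighth of 10 per length.

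The 3 pro-survival genes were compared with the 7 pro-death genes, and the direction depended on whether levels were summed or compared by their medians. Summed, the pro-survival genes gave 78.8 RPKM in T14 and 71.9 in T10, then 75 in T8 and 82.6 in TUN. The pro-death genes gave 147 RPKM in T14 and 117 in T10 but 234 in T8 and 227 in TUN. The pro-survival sum was thus nearly the same in each tumour, at 77.1 ± 4.62 RPKM (SD, n = 4), while the pro-death sum, at 181 ± 58.5 RPKM, was largest in T8 and TUN. The log2 ratio of the sums was -0.90 in T14 and -0.70 in T10, then -1.64 in T8 and -1.46 in TUN, below 0 in 4 of 4 tumours, with a mean of -1.17 ± 0.45.

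That direction was not kept under every setting. Bax made up 69.3 ± 3.57% of the pro-death sum, and without it, a setting chosen after seeing the data, the mean log2 ratio turned to 0.54, above 0 in 4 of 4 tumours. Without the most abundant gene of both sides, Mcl1 and Bax, it was -1.25, below 0 in 4 of 4 tumours. In CPM, with no length correction for any gene, it turned to 0.39, above 0 in 3 of 4. The difference of the medians also went the other way: the median pro-survival gene stood above the median pro-death gene by 1.71 log2 units in T14 and 1.04 in T10, then 0.22 in T8 and 0.42 in TUN, averaging 0.85 ± 0.67. Without Mcl1 and Bax this difference was 0.22, above 0 in 2 of 4 tumours. For a wider family, Bcl2l2, Bcl2l10, Bcl2a1a, Bcl2a1b and Bcl2a1d joined the pro-survival side and Bok, Bmf, Bik and Hrk the pro-death side. The other family genes described below were left out. The difference of the medians then turned to -1.97, since 4 of the 5 pro-survival genes added had 17 counts or fewer in each library. No test was made of these scores, since the members were chosen.

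Within the pro-survival sum Mcl1 took 64.1% in T14 and 69.6% in T10, then 73.9% in T8 and 75.3% in TUN. Bcl2l1 took 30.1% in T14 and 19.1% to 21% in the other tumours, and Bcl2 5.02% to 9.42%. These shares were taken at the merged exon length only. On the pro-death side Bak1 took 10.1% to 11.7%. The 5 BH3-only genes together gave 30.1 RPKM in T14 and 28 in T10, then 41.2 in T8 and 38.8 in TUN, and the log2 ratio of the pro-survival sum to theirs was 1.18 ± 0.25. The log2 ratio of the pro-survival sum to the 2 effectors alone was -0.57 in T14 and -0.30 in T10, with -1.36 in T8 and -1.19 in TUN.

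**Figure D2:**
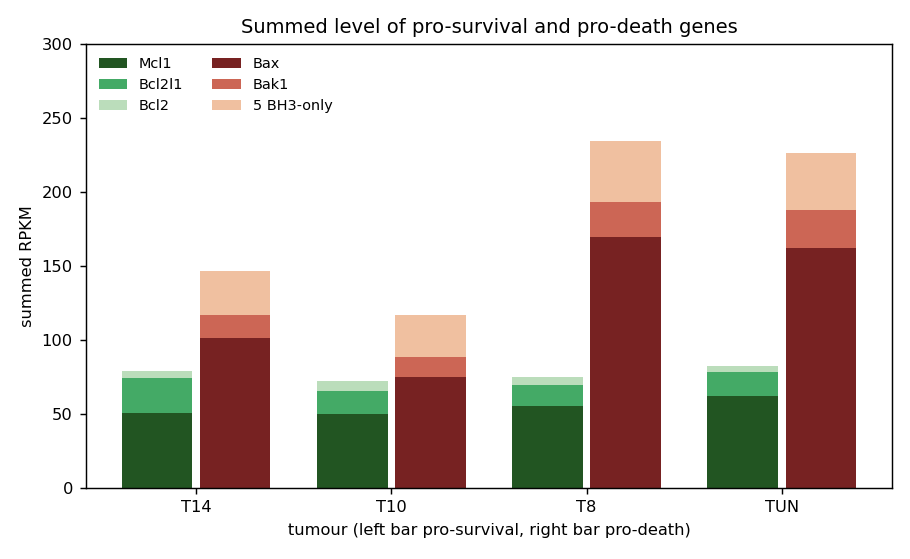
Summed RPKM of the pro-survival genes (left bar, green) and the pro-death genes (right bar, red) in each tumour, stacked by gene, with the 5 BH3-only genes as 1 block. The left bars lie between 71.9 and 82.6 RPKM, while the right bars range from 117 to 234 RPKM, mostly through Bax.

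Ratios of 12 pairs of paralogs or known binding partners were then taken per tumour on the log2(RPKM + 0.1) scale. Mcl1 exceeded Bcl2l1 by 1.67 ± 0.40 log2 units and Bcl2l1 exceeded Bcl2 by 1.72 ± 0.54, in each case in 4 of 4 tumours. The merged exons of Bcl2l1 span 4586 bases and its longest coding transcript 2568. With the longest coding transcript as length, these mean ratios were 0.84 and 2.21. Against its partners, Mcl1 stood above Bcl2l11 by 5.01 ± 0.17, above Pmaip1 by 2.39 ± 0.57 and above Bak1 by 1.51 ± 0.32. Mcl1 exceeded Bcl2 by 3.39 ± 0.41. The gap between Mcl1 and Pmaip1 was 2.89 in T14 and 2.76 in T10 against 1.64 in T8 and 2.26 in TUN. Mcl1 RNA stood above that of each of these partners in 4 of 4 tumours, with the margin over Pmaip1 smallest in T8.

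Bcl2l1 had a log2 ratio to Bax of -2.09 in T14 and -2.30 in T10, then -3.55 in T8 and -3.31 in TUN. The ratio of Bcl2 to Bax was -4.53 ± 0.80, and that of Bcl2l1 to Bad was 0.46 ± 0.24. Against Bak1, Bcl2l1 stood on both sides: the ratio was 0.61 in T14 and 0.15 in T10 but -0.72 in T8 and -0.67 in TUN, with a mean of -0.16 ± 0.65 that turned to 0.77 in CPM and to 0.029 without T8 and 0.013 without TUN (exact sign-flip permutation p = 0.75, adjusted 0.75). For the 10 ratios with the same sign in 4 of 4 tumours the two-sided exact sign-flip test gave p = 0.125 (adjusted 0.15 over 12 pairs), the smallest p that 4 tumours allow, so no ratio could be called. The labels name 4 tumours without saying whether each came from its own animal or cell line, so the p-values cover the spread between these samples only.

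Between tumours, no member passed the test for a spread beyond that of genes of like abundance. In edgeR's goodness of fit over all genes, 0 of 10 members passed at an adjusted p of 0.05, against 4.34% of the 14266 genes tested. At an unadjusted p under 0.05 there were also 0 members, against 8.38% of genes, and 0 were dispersion outliers in DESeq2, against 0.484%. The smallest unadjusted p among members was that of Pmaip1, 0.179. All 10 members passed the low-count filter and had at least 1 CPM in every tumour. A p that misses the threshold does not show that a member was constant. Among the marker genes, Gfap passed in edgeR at a 4.37-fold range (adjusted p = 0.0419) and Aqp4 did not at 4.36-fold (adjusted p = 0.0738). The widest member range, 2.62-fold, lay below both. The median ratio of the highest to the lowest tumour was 1.73 over the members and 1.57 over all genes tested. By side it was 1.64 for the 3 pro-survival and 1.91 for the 7 pro-death genes.

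The members divided by which tumours were highest. T8 and TUN were the 2 highest tumours for 5 members, Mcl1, Bax, Bak1, Bid and Pmaip1, an order found for 32.5% of all genes tested. T14 and T10 were the 2 highest for none of the members, an order found for 33% of all genes. Bcl2 and Bcl2l11 were highest in T10 and T8, Bcl2l1 and Bbc3 in T14 and TUN, and Bad in T14 and T8. With 10 members these counts are a description.

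Summed by list, markers of other cell types divided the tumours the same way. The 8 neuron markers summed to 3176 CPM in T14 and 2420 in T10, then 318 in T8 and 310 in TUN, led by Snap25 and Gad1. Mature oligodendrocyte markers, led by Mbp, summed to 3991, 5286, 1187 and 1147 CPM, and astrocyte markers, led by Slc1a3 and Slc1a2, to 7059, 4505, 2196 and 2104 CPM. Mitosis genes ran the other way, at 705, 716, 1280 and 1683 CPM, led by Top2a and Mki67. Not every marker kept the division of its list. In the same tumour order Slc1a3 stood at 1512, 767, 797 and 767 CPM, so only T14 stood out. Tubb3 (111, 217, 77.6 and 175 CPM) and Opalin (0.932, 4.64, 0.461 and 1.43 CPM) were higher in TUN than in T14. Of the lists, 7 of 8 neuron, 6 of 8 mature oligodendrocyte, 5 of 8 astrocyte and 0 of 8 mitosis genes passed in edgeR. The share over all genes tested was 4.34%. At an unadjusted p under 0.05 there were 2 mitosis genes, against 8.38% of all genes. T8 and TUN, the 2 highest tumours for Mcl1, Bax, Bak1, Bid and Pmaip1, thus had more mitosis gene RNA. By list sums they had less neuron and mature glial marker RNA. No gene of these 4 lists was at 0 counts in all tumours. Their part in the member values was not tested, and in bulk RNA fewer cells of a type and less RNA per cell cannot be told apart.

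The labels name neural stem cells as the source, and gliomas driven by PDGF are known to resemble oligodendrocyte precursors. Markers of those cells, led by Olig1 and Pdgfra, summed to 6891 CPM in T14 and 7935 in T10, then 11730 in T8 and 9135 in TUN. All 7 were above 1 CPM in every tumour, with 0 of 7 called, against 4.34% of all genes tested. Endothelial markers, led by Cldn5 and Flt1, summed to 244 to 281 CPM (0 of 7 called). Microglia and macrophage markers summed to 702, 518, 789 and 1489 CPM, with Lyz2 and C1qa in the lead. Lyz2, at 195, 113, 337 and 951 CPM, was the only 1 of 8 called (edgeR adjusted p = 0.000419). C1qa, C1qb and Aif1 were also highest in TUN. Cx3cr1, P2ry12, Tmem119 and Csf1r were instead highest in T14, so the sum in TUN does not stand for the whole list.

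**Figure D3:**
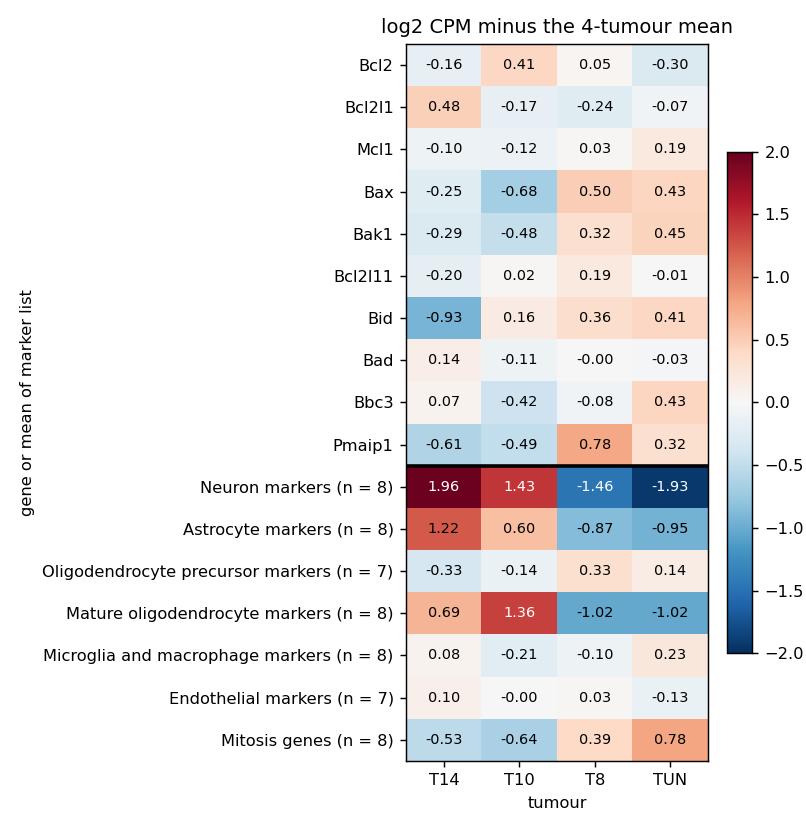
Difference of each member's log2 CPM from its 4-tumour mean in each tumour, above the line, and the same averaged over marker lists, below it; red is higher, blue is lower. Pmaip1 runs from -0.61 in T14 to 0.78 in T8 and Bid is lowest in T14 at -0.93, while the neuron markers run from 1.96 in T14 to -1.93 in TUN.

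Among the other multidomain genes of the family, 3 of 10 were detected at 1 CPM or more in all tumours. Bcl2l2, the pro-survival gene of BCL-W, which is known for neurons, stood at 104 CPM in T14 and 84.2 in T10, then 40.4 in T8 and 30.1 in TUN. It thus ran opposite to Bax and along with the neuron markers. Its unadjusted p was 0.0226, but it did not pass in edgeR (adjusted p = 0.332). Bok, a BAX-like gene, stood at 23.1, 33.4, 42.5 and 48.2 CPM in the same order, and at 20 ± 5.96 RPKM stood close to Bak1 per length. Bcl2l13, a mitochondrial member known for mitophagy, stood at 131 ± 21.8 CPM (SD, n = 4).

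The rest of this list was near the limit of detection, with 1 exception. Bcl2l15 had 375 counts in T14 and 45 in T10, then 3 in T8 and 0 in TUN, 16.6 CPM in T14 against at most 0.134 in TUN, the level that a count of 0 allows (up to 3 counts). It failed the low-count filter, so edgeR did not test it, and it was a dispersion outlier in DESeq2. Bcl2l12 stood at 0.945 ± 0.44 CPM. The pro-survival genes Bcl2a1a, Bcl2a1b and Bcl2a1d, which are near-identical copies and known for leukocytes, had 2 to 17 counts each per library, and their split is uncertain. Bcl2l14 had 0 to 3 counts, and Bcl2l10, an oocyte gene, had 0 in every library.

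Of 6 further BH3-only genes, 5 were detected in all tumours and 0 were called, against 4.34% of all genes tested. The most abundant, Bnip3l and Bnip3, are mitophagy receptors induced by low oxygen. Bnip3l stood at 25.5 ± 5.51 RPKM (SD, n = 4) and Bnip3 at 14 ± 2.8. Becn1, an autophagy gene whose product carries a BH3 domain, stood at 10 ± 0.821 RPKM. Its exons overlap Cntd1 over 3104 of 7065 bases, and Cntd1 had 3 to 14 counts. Reads from that stretch may be missing from Becn1, so its level is uncertain. The classical death inducers were low: Bmf, released from the cytoskeleton, stood at 8.07 ± 1.65 CPM, the neuronal gene Hrk at 2.06 ± 0.638 CPM and Bik at 0.369 ± 0.144 CPM.

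Around the family, 7 pathway lists with 71 genes in all were read from the same fit. Of these, 60 genes were tested and 0 were called in edgeR, against 4.34% of all genes tested. Outliers in DESeq2 were 0 of the 60, against 0.484%. At an unadjusted p under 0.05 in edgeR there were 2, against 8.38% of all genes. The 2 were Bcl2l2 and Rps6ka1, a kinase gene singled out after its values were seen (edgeR adjusted p = 0.471), which stood at 73.5 CPM in T14 and 22.3 to 27.2 CPM in the other tumours. All 14 apoptosome and mitochondrial genes were detected in every tumour, led per length by the channel genes Vdac1 (138 ± 11.4 RPKM), Vdac2 (37.4 ± 2.17 RPKM) and Vdac3 (30.2 ± 3.8 RPKM). VDAC2 is known as the docking site of BAK1 at the outer membrane. The median range of this list was 1.44-fold, below the 1.57-fold of all genes tested.

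Of the 9 inhibitor of apoptosis genes, 6 were detected in all tumours. Xiap, which blocks caspases directly, stood at 20.7 ± 3.09 RPKM and Birc2 at 8.65 ± 2.27 RPKM. Birc5, the gene of survivin, which acts in mitosis as well as in survival, stood at 23.9 CPM in T14 and 20.3 in T10, then 47 in T8 and 59.1 in TUN, an order close to that of the mitosis genes. Of 12 death receptor genes 10 were detected, led by the receptors Tnfrsf1a (53.8 ± 17.5 RPKM) and Tnfrsf12a (36.1 ± 12.9 RPKM) and the adaptor Traf2 (5.25 ± 1.05 RPKM). Both receptors were highest in T8 and TUN, Tnfrsf1a at 102, 100, 190 and 165 CPM. The list's median range was 2.12-fold.

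All 11 regulators of MCL1 and BAD proteins were detected in every tumour, with a median range of 1.46-fold. The leading genes were Ywhae (690 ± 121 RPKM) and Ywhab (190 ± 12.1 RPKM), of the 14-3-3 proteins that hold phosphorylated BAD in the cytosol, and Akt1 (64.6 ± 11.6 RPKM), a kinase that phosphorylates it. Bad RNA, at 12.4 RPKM, was thus far below that of the 14-3-3 genes.

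**Figure D4:**
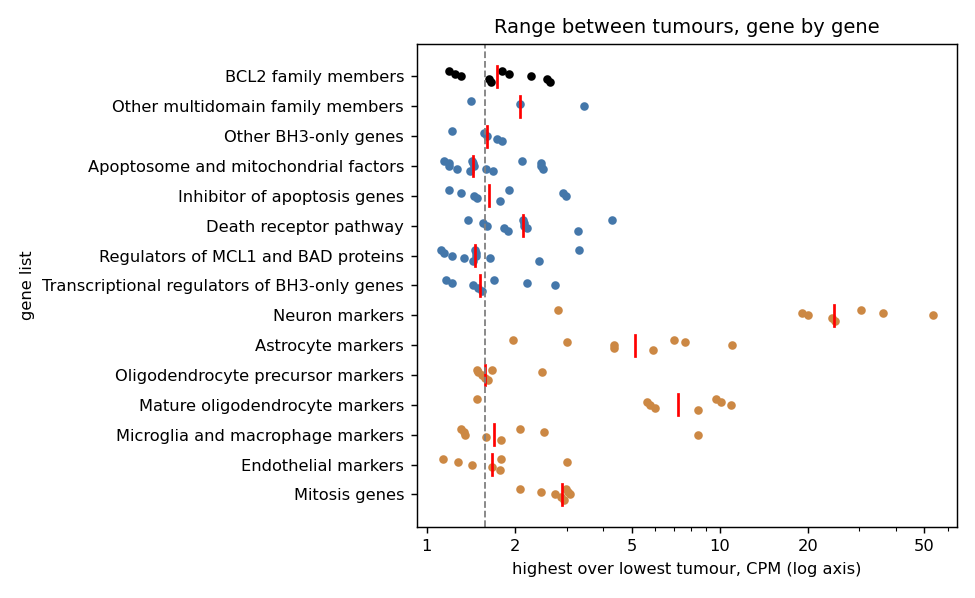
Ratio of the highest to the lowest tumour in CPM on a log axis for each gene that passed the low-count filter, by list; black points are the 10 members, blue points the pathway lists, orange points the marker lists, red bars list medians and the dashed line the median of all genes tested (1.57). The members lie between 1.19 and 2.62, with a median of 1.73, near the pathway lists. Medians of the marker lists run from 1.58 for oligodendrocyte precursor markers to 24.5 for neuron markers, with 2.9 for mitosis genes.

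Transcriptional regulators of the BH3-only genes were read last, since Bax, Bbc3 and Pmaip1 are textbook targets of p53. Trp53 stood at 48.4 CPM in T14 and 53.6 in T10, then 107 in T8 and 85.6 in TUN, with T8 and TUN the 2 highest, as for Bax and Pmaip1 but not for Bbc3. Mdm2, another p53 target and its ubiquitin ligase, stood at 82.2, 70.7, 72.5 and 76.4 CPM and did not show that order. None of these genes was called (0 of 8 tested, against 4.34% of all genes). The list was led by Atf4 (115 ± 23.7 RPKM), Jun (67.1 ± 12.7 RPKM) and Trp53 (18.2 ± 6.79 RPKM).

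Promoter windows of 300 bases (RefSeq, GRCm38.p6, 250 before to 50 after the start) were at hand for 9 members, all but Pmaip1. Of these, only the window of Bax held a p53 half-site, a match found in 8.36% of the 32851 windows of all genes, searched on both strands. It is printed because Bax was the most abundant member per length and, like Trp53, had its 2 highest values in T8 and TUN. That order was found for 32.5% of all genes tested, and neither gene was called. Whether Bax follows Trp53 was not tested. The stretch covers chr7:45467050-45467139, minus strand, positions -241 to -152 from the start, 5′ to 3′, with the half-site in capitals.
Bax promoter: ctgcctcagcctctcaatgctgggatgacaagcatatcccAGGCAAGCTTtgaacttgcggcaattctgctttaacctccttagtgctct

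The GC box GGGCGG was in a window of 7 of the 9 members (35.7% of all windows), and CCAAT in 3 of 9 (37.4%). The E2F motif TTTNGCGC occurred in 1 of 9, in a window of Bcl2l1 (1.38% of all windows), and TGACGTCA in 0 of 9 (1.79%). Both strands were searched in each case, and members with several annotated starts have several windows. A member was counted if any of its windows matched, whereas the percentages are of single windows, so the counts and percentages are not like for like. A match is a description of these letters only.

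The genes whose profile over the 4 tumours lay nearest to the 3 widest-ranging members were found by the distance of log2 CPM centred on each gene's mean, among 11996 genes with a mean of 5 CPM or more. For Pmaip1 they were Eno1 (distance 0.038 log2 units), Rack1 (0.074) and Rps14 (0.076), genes of glycolysis and the ribosome that have near-identical copies elsewhere in the genome, so their counts are uncertain. For Bax they were H2afx (0.087), Mtmr11 (0.10) and P4ha1 (0.10), H2afx encoding the histone variant that marks DNA breaks. For Bid the nearest, 9930014A18Rik (0.15), Atp10b (0.18) and Vash2 (0.19), were farther away. Eno1 stood at 132 CPM in T14 and 144 in T10, then 336 in T8 and 251 in TUN, the same order as Pmaip1 at a higher level. With 4 tumours many genes share any profile, so these names describe the pattern only.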

How the data were processed

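PolyA RNA of 4 tumours was prepared with the TruSeq RNA kit, which does not mark strand, and sequenced on a HiSeq2500, per the labels' protocols. What the authors deposited is 1 table of integer counts of reads for each gene. The submitters' processing notes name STAR, featureCounts and the build mm10; tool versions, the strand setting and how shared reads were counted are not given there or in the labels. Symbols matched 46451 of 46946 GENCODE vM8 identifiers; 4 columns were used and 0 columns of sample values were left aside. The merged exon length, a deposited number of another kind, is by the authors and equals the summed exon blocks in all 46946 genes.

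Counts were scaled by TMM in edgeR 4.0.16 (R 4.3.3; factors 0.971 in T14 and 1.01 in T10, then 0.988 in T8 and 1.03 in TUN) to CPM, and with the merged exon length to RPKM. A count of 0 allows up to 0.122 to 0.134 CPM (3 counts). Variability was tested by the residual deviance of an intercept-only edgeR fit at the trended dispersion (chi-square, 3 degrees of freedom, Benjamini-Hochberg over 14266 genes past the default filter); the step was tested on simulated data. DESeq2 1.42.0 was an alternative. Pair ratios used a pseudocount of 0.1, log2 CPM a prior count of 2. Named genes were the 10 members, the 16 other family genes, the 3 most abundant genes per length of each other pathway list, the 2 most abundant of each marker list, and the 3 nearest profiles of the 3 members with the widest range. Some genes that this rule names are not reported here. Other names were chosen after their values were seen. Members and lists were chosen with earlier results of these data known. Dixon's ratio found 0 of 24 member values, ratios and sums above the critical value of 0.829.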

Additional observations from a re-analysis of the deposited data

How the results depend on the processing

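The count of 0 members called was the same with DESeq2 size factors, library totals, no low-count filter, 1 common dispersion, DESeq2 outliers and without each tumour. Over all genes, 619 were called, 426 to 462 without 1 tumour and 69 as DESeq2 outliers. The summed log2 ratio of pro-survival to pro-death genes (-1.17) was -1.25 without the most abundant gene of each side, turned to 0.39 in CPM and 0.54 without Bax, and was -0.76 with the longest coding transcript as length, and -1.33 to -1.02 without 1 tumour. The median difference (0.85) was 0.22 without the most abundant gene of each side (above 0 in 2 of 4 tumours), 1.87 in CPM, 1.55 with the longest coding transcript, -1.97 with the wider family and 0.56 to 1.06 without 1 tumour. The settings without Bax and with the longest coding transcript were chosen after seeing the data. Of 84 alternative pair ratios 80 kept their sign. The other 4 were Bcl2l1 to Bak1 (-0.16), at 0.77 in CPM, 0.66 with the longest coding transcript and -0.42 to 0.029 without 1 tumour (0.013 without TUN). The cause was not tested. Where a ratio had the same sign in 4 of 4 tumours, leaving out a tumour or raising the pseudocount cannot turn it. For such ratios only the CPM and transcript length settings could have changed the sign. All 60 alternative member levels stayed within 1 SD. Leaving out 1 of 4 tumours cannot move a mean by 1 SD, so only the changes of scaling could have failed this. Counting error was small at 93 counts or more per member, so the number of tumours limits precision. No paired analysis was possible because there is a single group.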

Other observations

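Downstream of the family, some genes outside the naming rule, chosen after their values were seen, divided the tumours much as Bax did. The executioner caspase Casp6 stood at 4.97 CPM in T14 and 5.66 in T10, then 12.2 in T8 and 11.6 in TUN. Diablo, whose product frees caspases from XIAP, stood at 60, 79.7, 101 and 127 CPM. The initiator Casp9 ran the other way, at 47.8, 42.1, 34.2 and 30 CPM. None of these 3 genes passed in edgeR, over all genes or at an unadjusted p under 0.05. The ligand Tnfsf10 was highest in T14 (2.49 CPM) and lowest in TUN (0.58 CPM). Its receptor gene Tnfrsf10b was highest in T8 (5.2 CPM against 1.59 to 1.92 CPM elsewhere). Counts per library were low, 13 to 56 for Tnfsf10 and 36 to 124 for Tnfrsf10b. Neither passed in edgeR, over all genes or at an unadjusted p under 0.05.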
